A study of Mus musculus with 2 samples.

Results

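The transcription factors that pattern the dorsal neural tube were followed in single cells of the cardiac neural crest region, as the 8 genes Zic1, Zic2, Zic4, Zic5, Pax3, Pax7, Olig3 and Lmx1a. They were chosen by name as transcription factors of the dorsal neural tube, and all 8 were among the 18131 genes of both libraries. The tissue was dissected from C57BL/6 mouse embryos at E9.5, from the level of the middle of the otic placode back to the fourth somite, and was sequenced with 10x Genomics 3′ v3 chemistry. There were 2 libraries, named WT for the genotype Prdm6+/+; Wnt1-Cre2; ZsGreen1 and KO for Prdm6f/f; Wnt1-Cre2; ZsGreen1. Both genotypes thus carried the Cre transgene and the ZsGreen1 reporter, a green fluorescent protein that marks recombined cells. Wnt1-Cre2 acts where Wnt1 is active, in the dorsal neural tube and the neural crest cells (NCCs) that leave it, so Prdm6, which encodes a PR domain protein, was to be lost from that lineage and not from the other cells of the dissected tissue. The embryos were littermates, and no map of cells to embryos was used here.

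The dorsal side of the neural tube is patterned by Wnt and BMP signals from the roof plate, which opposes the Shh signal from the floor plate. The zinc finger genes Zic1, Zic2, Zic4 and Zic5 and the paired box genes Pax3 and Pax7 are switched on broadly in dorsal progenitors. Olig3, a basic helix-loop-helix factor, marks the most dorsal progenitor domains, and Lmx1a, a LIM homeodomain factor, is required for the roof plate. Several of these genes also act outside the neural tube, since Pax3 and Pax7 mark the dermomyotome of the somite and Pax3 is needed in early NCCs.

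There were 11958 WT cells, each with a median of 1597 unique molecular identifiers (UMIs), and 9765 KO cells, with a median of 1703. Levels are given as UMIs per 1000000 UMIs (CPM) of a library or of a cell class, with exact Poisson intervals of 95%, and ratios of KO over WT or of one class over another carry exact conditional intervals of 95%. With 1 library per genotype no test between genotypes was possible, and every interval covers counting error only, not the variation between embryos. Prdm6 was sparse in both libraries, at 104 WT UMIs (5.00 CPM) and 59 KO UMIs (3.12 CPM), which gave a log2 ratio of KO over WT of -0.68 (-1.17 to -0.21). RNA of other cells was widespread, as 39.8% of WT and 44.0% of KO cells held a UMI of the heart gene Myl7 and 43.3% and 25.8% one of the globin gene Hba-a1. The libraries shared 26 cell barcode sequences.

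Of the 8 genes, 4 lie as 2 divergent pairs in the mouse genome (build GRCm38, GENCODE annotation). Zic1 is at chr9:91358058-91365810 on the minus strand and Zic4 at chr9:91362413-91389348 on the plus strand, so that the annotated genes overlap by 3398 bases. Zic5 is at chr14:122456795-122465677 on the minus strand and Zic2 at chr14:122475435-122479852 on the plus strand, with starts 9758 bases apart. The others stand alone: Pax3 at chr1:78101267-78197134 and Pax7 at chr4:139737062-139833528 on the minus strand, and Olig3 at chr10:19356533-19358604 and Lmx1a at chr1:167689237-167848741 on the plus strand.

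The bases before the RefSeq start sites of Zic1, Olig3 and Lmx1a are printed because these 3 genes had their highest measured levels in different cell classes. Among classes with at least 25 cells in each library, these were the dermomyotome, the dorsal neural tube and the erythroid cells. Some of these intervals overlapped those of other classes. Each line is the part of the 250 bases before the start that lies in no annotated exon (RefSeq, GRCm38.p6), read 5′ to 3′ on the strand of the gene, at chr9:91365811-91366018 (minus) for Zic1, chr10:19356289-19356532 (plus) for Olig3 and chr1:167689308-167689556 (plus) for Lmx1a. The Lmx1a stretch lies within the longer GENCODE gene, outside its exons. Capitals mark matches to CCAAT and to TATAAA.
Zic1: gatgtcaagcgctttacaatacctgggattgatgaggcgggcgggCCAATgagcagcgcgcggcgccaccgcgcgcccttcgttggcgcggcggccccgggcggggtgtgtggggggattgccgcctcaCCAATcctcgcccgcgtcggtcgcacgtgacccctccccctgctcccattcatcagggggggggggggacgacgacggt
Olig3: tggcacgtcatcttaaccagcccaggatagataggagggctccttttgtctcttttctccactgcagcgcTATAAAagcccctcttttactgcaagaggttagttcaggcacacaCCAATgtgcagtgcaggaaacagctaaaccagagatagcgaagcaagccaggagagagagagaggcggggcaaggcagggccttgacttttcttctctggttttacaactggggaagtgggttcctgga
Lmx1a: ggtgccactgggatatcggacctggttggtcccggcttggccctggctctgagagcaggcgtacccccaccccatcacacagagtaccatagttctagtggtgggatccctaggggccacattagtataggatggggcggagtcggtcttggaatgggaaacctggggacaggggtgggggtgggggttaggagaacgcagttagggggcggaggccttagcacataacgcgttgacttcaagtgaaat
Both strands were searched for the CCAAT box, for the TATA box core TATAAA, for the TCF/LEF core of Wnt signalling, CTTTGAT, for the GATA core, written GATAA, and for the E-box of helix-loop-helix factors, CANNTG. In the printed stretches, Zic1 held 2 CCAAT matches, 205 and 121 bases before the start, and Olig3 held TATAAA at 180 and CCAAT at 135, whereas Lmx1a held neither. Each of the 3 stretches held 1 E-box and none held CTTTGAT or GATAA. The whole 250 bases of Zic1 held 1 GATAA match, which lay outside the printed stretch. Over 32851 promoter windows of 250 bases, CCAAT was present in 33.8%, TATAAA in 12.4%, CTTTGAT in 3.21%, GATAA in 22.6% and CANNTG in 66.2%. These matches are letters in a window and were not tested as binding sites. For Zic4 and Pax7 the whole window lay in annotated exons, and Zic2 and Pax3 were not in the promoter table.

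Cells were then gated by marker genes, none of which is one of the 8 factors, with at least 3 different markers of a class required. The neural tube-gated class held 1135 WT and 977 KO cells (9.49% and 10.0% of the library) and was led by Sox1, Sox2 and Sox3. Within it, cells with a UMI of a roof plate or dorsal gene such as Wnt1, Msx1 or Msx3 and of no ventral or intermediate marker formed the dorsal class, with 208 WT and 185 KO cells, or 18.3% and 18.9% of the neural tube-gated cells. The ventral class, gated on genes such as Nkx6-1, Foxa2 and Shh, held 279 WT and 248 KO cells. The somite-gated class held 221 and 130 cells, of which 113 and 50 had dermomyotome or myotome markers (Myf5, Dmrt2) and 43 and 32 sclerotome markers such as Pax1. Migrating NCC-gated cells, led by Sox10, Tfap2b and Foxd3, were 195 and 149. A Sox10 UMI was present in 5.42% of all WT and 6.08% of all KO cells, so this gate does not measure the share of NCCs in a library. No class was assigned to 5933 WT and 4802 KO cells.

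At least 1 UMI of the 8 genes was present in 30.8% of all WT cells and 33.0% of all KO cells. This share was 62.0% and 62.2% in the dorsal neural tube, 27.6% and 29.8% in the ventral neural tube, and 84.1% and 80.0% in the dermomyotome. In the endothelial-gated cells, taken as a class that should lack these genes, it was still 19.9% and 27.6%, at median depths of 2214.5 and 2743.5 UMIs per cell against 1893 and 2061 in the dorsal neural tube. Shares at or below those of the endothelial cells are therefore read as background, not as expression.

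**Figure D1:**
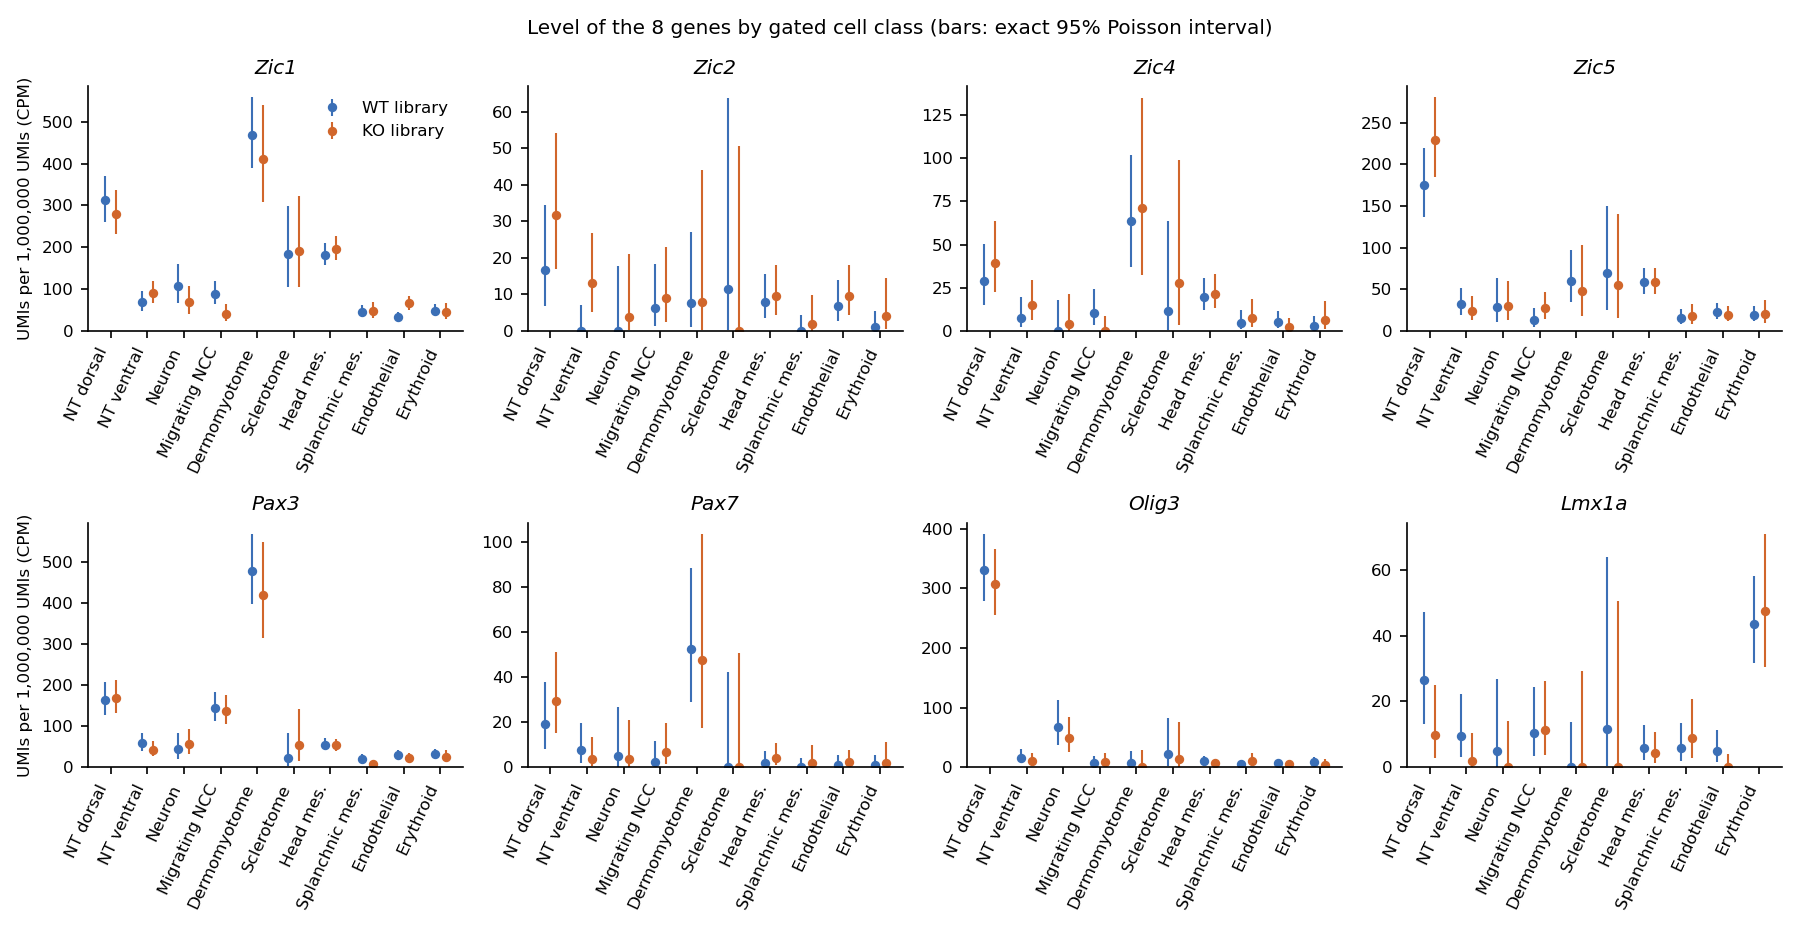
Levels of the 8 genes in 10 gated cell classes. Each panel is 1 gene, the vertical axis gives UMIs per 1000000 UMIs (CPM), points are the WT (blue) and KO (orange) libraries, and bars are exact 95% Poisson intervals. Of the classes drawn, Olig3 is highest in the dorsal neural tube, Pax3 in the dermomyotome and Lmx1a in the erythroid class in both libraries.

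To determine how the factors were distributed along the dorsoventral axis, the dorsal neural tube was compared with the ventral neural tube within each library. Zic1, Zic5, Pax3 and Olig3 had at least 50 UMIs over both classes in either library and were at least 1.5-fold higher dorsally in both, where 3.61% of 3880 genes with that minimum were so in WT and 4.2% of 3854 in KO. They reached the minimum mostly through the dorsal cells and the gate itself selected dorsal cells by other genes, so these shares are set side by side as a description. The other 4 factors were sparser.

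Zic1, which maintains dorsal progenitors, stood at 312 CPM dorsally and 68.6 CPM ventrally in WT, and at 281 and 89.5 CPM in KO. The intervals of the dorsal and ventral levels did not overlap in either library. The log2 ratio of dorsal over ventral was 2.18 (1.64 to 2.76) in WT and 1.65 (1.15 to 2.17) in KO. A Zic1 UMI was detected in 36.1% of dorsal cells in WT and 36.8% in KO, and after each cell was thinned to 1000 UMIs in 24.7% and 22.3%, against thinned shares of 6.96% and 8.06% ventrally and 4.21% and 5.23% in endothelial cells. The thinned ventral and endothelial shares had overlapping intervals, whereas the WT levels did not, with 48.0 to 94.9 CPM ventrally and 21.8 to 44.4 CPM in endothelial cells. In KO the intervals of these levels overlapped, at 89.5 CPM ventrally and 65.2 CPM in endothelial cells.

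Zic5, the partner of Zic2, had 73 dorsal and 17 ventral UMIs in WT (175 and 32.4 CPM) and 94 and 13 in KO (229 and 24.2 CPM). The log2 ratio was 2.43 (1.66 to 3.29) in WT and 3.24 (2.40 to 4.20) in KO. Zic2, whose human counterpart is linked to failed division of the forebrain, was sparse, with 7 dorsal UMIs and none ventrally in WT and 13 dorsal and 7 ventral UMIs in KO. The log2 ratio of dorsal over ventral for Zic2 had a lower bound of 0.86 in WT and was 1.28 (-0.15 to 2.85) in KO. Zic4, which shares its locus with Zic1, had 12 dorsal and 4 ventral UMIs in WT and 16 and 8 in KO, with log2 ratios of 1.92 (0.20 to 4.01) and 1.39 (0.08 to 2.82).

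Pax3, the paired box gene of dorsal progenitors and early NCCs, was found at 163 CPM dorsally and 59.0 CPM ventrally in WT and at 168 and 42.9 CPM in KO. The log2 ratio of dorsal over ventral was 1.47 (0.83 to 2.13) in WT and 1.97 (1.27 to 2.72) in KO, with no overlap of the dorsal and ventral intervals. Its paralogue Pax7 had 8 dorsal and 4 ventral UMIs in WT, a log2 ratio of 1.33 (-0.57 to 3.51) that was not resolved from 0 at this depth. In KO there were 12 and 2 Pax7 UMIs, with a log2 ratio of 2.97 (0.81 to 6.17).

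Of the ratios that could be given a value, that of Olig3 was the steepest. It was present at 331 CPM dorsally and 15.2 CPM ventrally in WT and at 307 and 11.2 CPM in KO, that is 21.7-fold and 27.5-fold higher dorsally. The log2 ratios were 4.44 (3.42 to 5.68) and 4.78 (3.62 to 6.25). Dorsal cells were 1.74% of the WT and 1.89% of the KO library, yet they held 21.1% and 23.5% of all Olig3 UMIs. The ventral shares of cells with an Olig3 UMI, 2.15% in WT and 2.42% in KO, lay near the endothelial shares of 1.53% and 1.45%.

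Lmx1a, the roof plate gene, was sparse even among dorsal cells, with 11 UMIs in WT and 4 in KO. Ventral cells held 5 and 1 UMIs. The log2 ratio of dorsal over ventral was 1.47 (-0.17 to 3.35) in WT, and the interval in KO ran from -0.95 to 8.01.

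**Figure D2:**
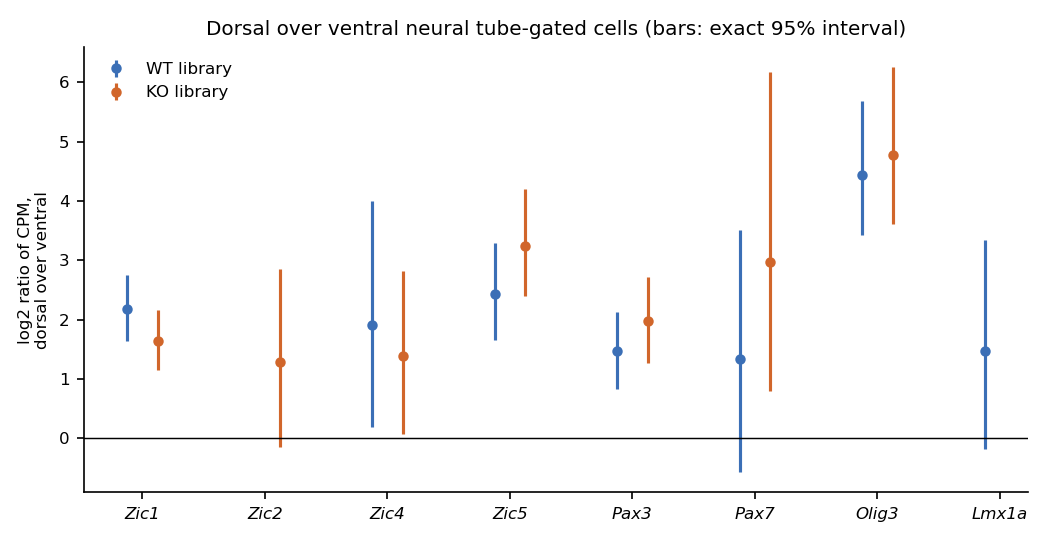
Log2 ratio of CPM in dorsal over ventral neural tube-gated cells for the 8 genes (vertical axis) in the WT (blue) and KO (orange) libraries, with exact 95% intervals. All points lie above 0, and the intervals of Pax7 and Lmx1a in WT and of Zic2 in KO reach below it. Zic2 in WT (7 dorsal and 0 ventral UMIs) and Lmx1a in KO (4 and 1 UMIs) are not drawn.

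To ask whether the factors were found together in single cells, pairs were counted in the neural tube-gated class. A Zic1 UMI was present in 51.8% of the WT cells with an Olig3 UMI (58 of 112) and in 16.6% of those without, and in KO in 60.2% (56 of 93) and 18.1%. Of the cells with a Pax3 UMI, 39.1% in WT and 40.0% in KO also held Zic1, against 17.2% and 19.1% of cells without. Pax3 was detected in 33.0% and 37.6% of cells with Olig3 and in 11.1% and 11.9% of cells without. In these 3 pairs the intervals of cells with and without the first gene did not overlap in either library. The class mixes dorsal and ventral cells, and the part of this mix was not tested. Within the dorsal class the intervals were also apart, except for Olig3 with Pax3 in WT (35.6% against 19.5%). Pax7 was found in 4.64% of WT neural tube-gated cells with Pax3 and 1.22% of those without, and in 3.57% and 2.27% in KO, with overlapping intervals.

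The genes that share a locus were counted in the same way. Zic4 was present in 7.02% of WT cells with a Zic1 UMI (16 of 228) and 1.43% of those without, and in 6.94% and 2.63% of KO cells, with intervals that overlapped in KO and not in WT. Zic5 was found in 33.3% of WT cells with a Zic2 UMI (5 of 15) and 11.2% of the others, and in 31.3% (10 of 32) and 12.4% in KO, with intervals that overlapped in WT and not in KO. Cells with a UMI of one gene were deeper than cells without, for Zic1 by medians of 1965.5 against 1665 UMIs in WT, and the part of depth in these shares was not tested. At most 5 of the 8 genes were found in 1 dorsal cell in WT and 6 in KO.

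**Figure D3:**
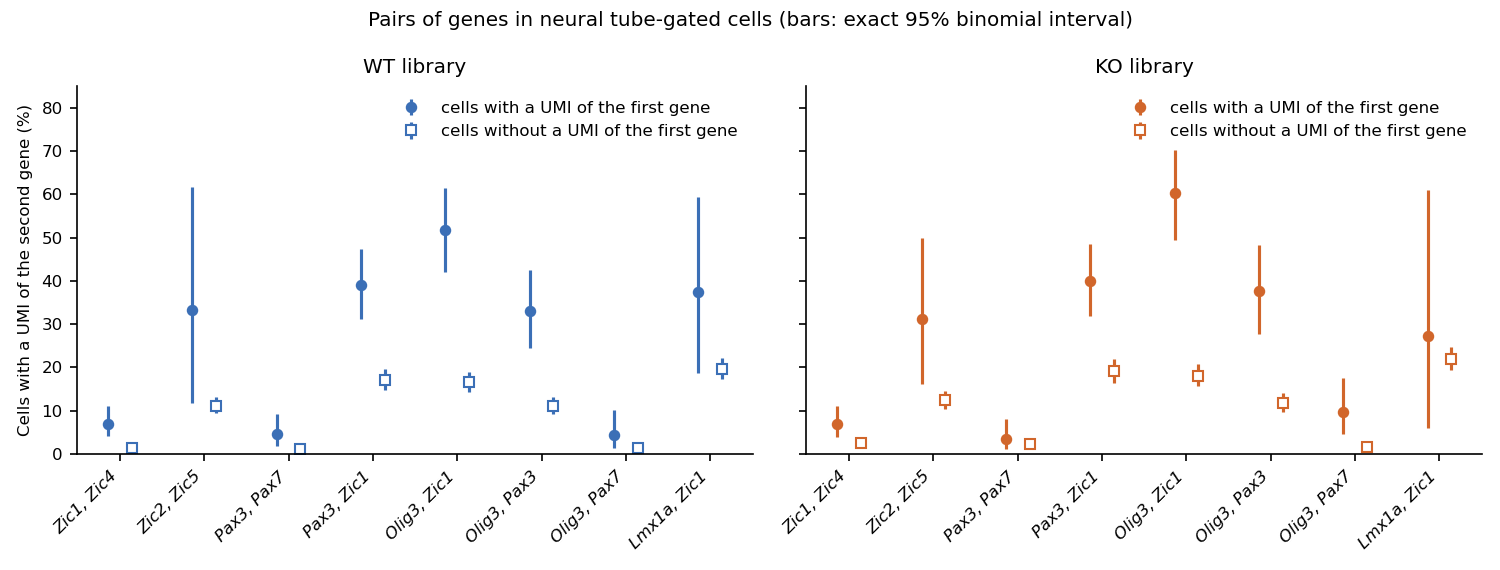
Pairs of the 8 genes in neural tube-gated cells of the WT (left) and KO (right) libraries. The vertical axis gives the percent of cells with a UMI of the second gene of each pair, among cells with (filled) and without (open) a UMI of the first gene, and bars are exact 95% binomial intervals. Of cells with Olig3, 51.8% in WT and 60.2% in KO held Zic1, the highest shares drawn.

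To determine whether loss of Prdm6 went with a difference in the dorsal program, KO was compared with WT over all cells. None of the 8 factors reached 1.5-fold in either direction, where 1.02% of 12909 genes with at least 50 UMIs were that much higher in KO and 3.79% lower. The median log2 ratio over these genes was -0.06, with -0.53 and 0.33 at the 5th and 95th percentiles. Zic1 had 2361 UMIs in WT and 2063 in KO, or 114 and 109 CPM, and its log2 ratio of -0.06 (-0.15 to 0.03) had an interval well within 1.5-fold in either direction. Pax3 with 1271 and 1064 UMIs (61.2 and 56.2 CPM) gave -0.12 (-0.24 to -0.00), and Olig3 with 654 and 537 UMIs (31.5 and 28.4 CPM) gave -0.15 (-0.32 to 0.02). For these 3 genes the ratio stayed near that of the median gene.

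Zic5 had 855 UMIs in WT and 871 in KO, or 41.1 and 46.0 CPM, a log2 ratio of 0.16 (0.02 to 0.30). Zic4 had 263 and 224 UMIs and Pax7 had 121 and 120, with log2 ratios of -0.10 (-0.36 to 0.17) and 0.12 (-0.25 to 0.50). The 2 ends of the group were Zic2 and Lmx1a. Zic2 had 135 UMIs in WT and 156 in KO (6.50 and 8.24 CPM), a log2 ratio of 0.34 (0.00 to 0.69), higher than those of 95.3% of the genes. Lmx1a had 224 and 146 UMIs (10.8 and 7.71 CPM), a log2 ratio of -0.48 (-0.79 to -0.18), higher than those of 6.22% of the genes. Erythroid-gated cells, in which its level was high, were 4.02% of WT and 2.02% of KO cells, and their part in this ratio was not tested.

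Within the neural tube-gated cells, Zic2 was at least 1.5-fold higher and Lmx1a at least 1.5-fold lower in KO. Of 8340 genes with at least 50 UMIs there, 1.85% were that much higher and 4.38% lower, and of 3329 genes with 10 to 49 UMIs, as both factors had, 15.0% and 24.6%. Zic2 had 16 UMIs in WT and 32 in KO, or 7.60 and 15.7 CPM, with a log2 ratio of 1.04 (0.14 to 2.01). Lmx1a had 30 UMIs in WT and 12 in KO, or 14.3 and 5.88 CPM, with a log2 ratio of -1.28 (-2.38 to -0.27). Over the alternatives Zic2 ran from 0.73 to 2.18 and Lmx1a from -2.27 to -0.49, the last with gates on cells thinned to 1000 UMIs, where Lmx1a was no longer past 1.5-fold. Both rested on few UMIs and neither interval covers the variation between embryos. The other 6 lay between -0.14 for Olig3 and 0.53 for Pax7, and their intervals all held 0.

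The same comparison in the dorsal class alone had fewer UMIs. There Zic2 (7 UMIs in WT, 13 in KO) and Pax7 (8 and 12) were past 1.5-fold higher and Lmx1a (11 and 4) past 1.5-fold lower, and all 3 intervals held 0. Of 3446 genes with at least 50 UMIs in this class 4.21% were that much higher and 5.37% lower, and of 4883 genes with 10 to 49 UMIs, as these 3 had, 16.1% and 22.9%. Over the alternatives Zic2 ran from 0.40 to 2.41 and Pax7 from 0.03 to 2.46, so that neither stayed past 1.5-fold in all of them. Lmx1a ran from -2.30 to -0.62 over the 6 alternatives in which it had at least 10 UMIs, against 8 for Zic1, and was not valued in the others. The best measured members gave log2 ratios of -0.15 (-0.53 to 0.22) for Zic1, 0.05 (-0.46 to 0.55) for Pax3, -0.11 (-0.47 to 0.25) for Olig3 and 0.39 (-0.07 to 0.85) for Zic5. The intervals of Zic1, Pax3 and Olig3 lay within 1.5-fold in either direction, whereas that of Zic5 reached past it. With gates on cells thinned to 1000 UMIs all 4 intervals reached past 1.5-fold, and Zic1 stood at -0.70 and Zic5 at -0.54. In the ventral class, Zic2 had 0 UMIs in WT and 7 in KO, and the lower bound of its log2 ratio of KO over WT was 0.50, under 1.5-fold. Zic4 was also past 1.5-fold higher there, at 7.62 CPM in WT and 14.9 CPM in KO, with overlapping intervals. In the ventral class 4.48% of 4260 genes with at least 50 UMIs were at least 1.5-fold higher, a minimum that neither Zic2 nor Zic4 reached. No share over sparser genes is given for it.

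**Figure D4:**
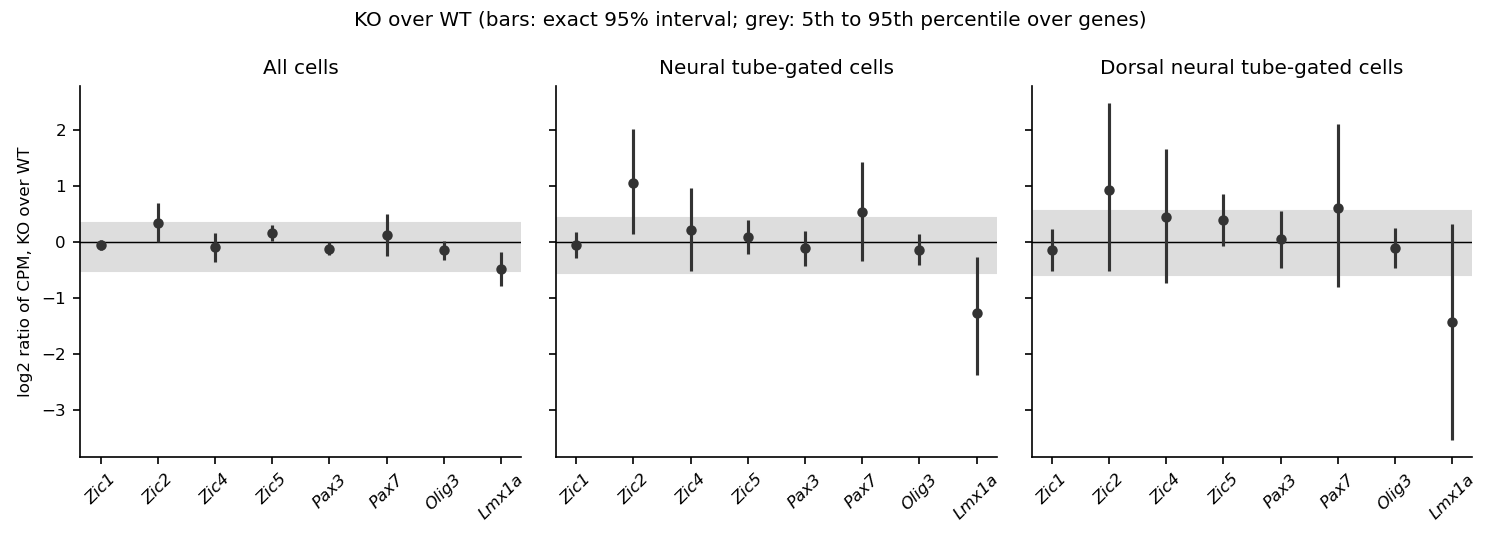
Log2 ratio of CPM in KO over WT for the 8 genes (vertical axis) in all cells, neural tube-gated cells and dorsal neural tube-gated cells, with exact 95% intervals. The grey band spans the 5th to the 95th percentile over genes with at least 50 UMIs. In neural tube-gated cells Zic2 at 1.04 and Pax7 at 0.53 lie above the band and Lmx1a at -1.28 below it, each with fewer than 50 UMIs over both libraries, and the intervals widen from the left panel to the right as UMIs become fewer.

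The somite was the other site of high levels. In dermomyotome- and myotome-gated cells, Pax3, which acts in the precursors of limb and trunk muscle, stood at 477 CPM (127 UMIs) in WT and 420 CPM (53 UMIs) in KO, and in sclerotome-gated cells at 22.9 and 54.9 CPM (2 and 4 UMIs). The log2 ratio of dermomyotome over sclerotome was 4.38 (2.49 to 7.44) in WT and 2.93 (1.49 to 4.86) in KO, beside 7.48% of 1498 and 6.9% of 783 genes at least 1.5-fold higher there. Pax3 reached the minimum of 50 UMIs behind these shares mostly through the dermomyotome, so they stand beside it as a description. Pax7, the muscle progenitor factor, had 14 and 6 UMIs in the dermomyotome and none in the sclerotome of either library. With 43 and 32 sclerotome cells, the intervals of its levels in these classes overlapped in both libraries, and the lower bound of its log2 ratio of dermomyotome over sclerotome was 0.12 in WT and -0.56 in KO.

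Zic1 was present on both sides, at 469 CPM in the dermomyotome and 184 CPM in the sclerotome of WT and at 412 and 192 CPM in KO, with log2 ratios of 1.35 (0.60 to 2.20) and 1.10 (0.23 to 2.07). Zic5 was not resolved between the sides, with log2 ratios of -0.20 (-1.63 to 1.44) and -0.21 (-2.28 to 2.06). Olig3 had 2 UMIs in the WT dermomyotome and 0 in KO, and Lmx1a had 0 in both (0 of 113 and 0 of 50 cells, which allows shares of cells with a UMI, not of cells expressing the gene, of up to 2.65% and 6.00%). Among classes with at least 25 cells in each library, the dermomyotome had the highest Zic1, Zic4, Pax3 and Pax7 levels in both libraries, with dorsal neural tube second for Zic1, and the 2 Zic1 intervals did not overlap in WT but did in KO. The dermomyotome intervals of Zic4 and Pax7 overlapped those of other classes in both libraries, so their first rank was not resolved, whereas those of Pax3 did not.

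Over the whole somite-gated class, Pax3 had 162 UMIs in WT and 69 in KO, or 326 and 230 CPM, a log2 ratio of -0.51 (-0.93 to -0.09) that turned to 0.16 (-0.47 to 0.77) with gates on cells thinned to 1000 UMIs, and Pax7 had 24 and 7, a log2 ratio of -1.05 (-2.51 to 0.21). Pax7 was past 1.5-fold lower, beside 6.71% of 3427 genes with at least 50 UMIs and 24.0% of 4848 genes with 10 to 49 UMIs, the range of Pax7 there. The make-up of the class moved with these values, as dermomyotome and myotome cells were 51.1% of it in WT (44.3 to 57.9%) and 38.5% in KO (30.1 to 47.4%), with overlapping intervals, and its part in them was not tested. Within those cells the ratio of KO over WT on the log2 scale stood at -0.18 (-0.68 to 0.29) for Pax3 and -0.15 (-1.81 to 1.32) for Pax7.

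In migrating NCC-gated cells, the labelled cell type of the samples, Pax3 was the one factor of the 8 above its level in all other cells in both libraries with intervals clear of 0, by log2 ratios of 1.28 (0.91 to 1.63) in WT and 1.34 (0.94 to 1.71) in KO, where 10.4% and 11.9% of genes were at least 1.5-fold higher. It stood at 144 CPM in WT (69 UMIs) and 137 CPM in KO (61 UMIs), and KO over WT gave a log2 ratio of -0.07 (-0.59 to 0.45), which moved to -0.86 (-1.76 to -0.02) with gates on cells thinned to 1000 UMIs. Olig3, Pax7 and Lmx1a had at most 5 UMIs each in either library. Zic1 had 42 UMIs in WT and 18 in KO, or 87.5 and 40.4 CPM, a log2 ratio of -1.12 (-2.0 to -0.29), while Zic5 had 6 and 12 UMIs with a log2 ratio of 1.11 (-0.42 to 2.81). In this class 4.81% of 3720 genes with at least 50 UMIs, a minimum Zic5 did not reach, were at least 1.5-fold higher in KO and 4.38% lower. The share of NCC cells with a Zic1 UMI, 8.25% in WT and 4.03% in KO after thinning, overlapped in its interval with the endothelial shares of 4.21% and 5.23%, and the endothelial level was 31.6 and 65.2 CPM. The intervals of the Zic1 levels in NCC and endothelial cells did not overlap in WT and did in KO.

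Of the remaining mesoderm, head mesenchyme-gated cells carried Zic1 at 182 CPM in WT and 196 CPM in KO, above the level in all other cells by log2 ratios of 0.73 (0.50 to 0.95) and 0.91 (0.68 to 1.13). At least 1.5-fold higher levels were found there for 8.91% of 11893 genes in WT and 11.0% of 11588 in KO. Zic4 at 19.8 and 21.2 CPM and Zic5 at 58.5 and 58.2 CPM differed little between the 2 libraries. Olig3 stood at 9.91 and 6.35 CPM there, with intervals that overlapped those of the endothelial cells (6.71 and 5.26 CPM).

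Among classes with at least 25 cells in each library, Lmx1a had its highest level where the other 7 factors were low, in the erythroid-gated cells, the globin-rich red cell precursors led by Hba-a1, Hba-a2 and Slc4a1. It had 45 UMIs there in WT, or 43.5 CPM (31.7 to 58.2), and 24 in KO, or 47.6 CPM (30.5 to 70.9). In WT this interval overlapped that of the dorsal neural tube level. In KO the dorsal interval lay below the erythroid one, but that of the intermediate neural tube overlapped it. The first rank was thus not resolved in either library. All other cells held 179 and 122 UMIs, so that the erythroid level was 4.80-fold higher in WT and 7.20-fold higher in KO, with log2 ratios of 2.26 (1.76 to 2.74) and 2.85 (2.15 to 3.49). In this comparison 7.18% of 11893 genes in WT and 8.82% of 11588 in KO were at least 1.5-fold higher. Each of the other 7 factors was at least 1.5-fold lower in erythroid cells than in the rest, as were 42.0% of the genes in WT and 43.1% in KO, with log2 ratios of -2.81 to -0.98 in WT and -2.87 to -1.01 in KO. Zic2, Zic4 and Pax7 had at most 3 UMIs each there. The otic placode-gated class, another known site of Lmx1a, held 3 of its UMIs in each library (62.2 and 67.0 CPM), in 19 WT and 15 KO cells, too few for a comparison.

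Erythroid-gated cells were 4.02% of the WT and 2.02% of the KO library but held 20.1% and 16.4% of all Lmx1a UMIs. An Lmx1a UMI was found in 8.94% of WT erythroid cells (43 of 481) and 10.7% of KO cells (21 of 197), and in 0.873% and 0% of endothelial cells (4 of 458 and 0 of 344), at median depths of 2056 and 2488 UMIs against 2214.5 and 2743.5. After thinning to 1000 UMIs the erythroid shares were 4.64% and 3.55%. No erythroid-gated cell held more than 2 Lmx1a UMIs, and of the 43 WT and 21 KO cells, 4 and 1 held a UMI of the dorsal gene Msx1, 4 and 2 of Zic1 and none of Wnt1 or Olig3. Among the 438 WT erythroid cells without Lmx1a, 23 held Msx1, 43 Zic1, 1 Wnt1 and 7 Olig3, so that Wnt1 and Olig3 were too rare for their absence to be read. The erythroid Lmx1a level did not differ between the libraries beyond counting error, with a log2 ratio of KO over WT of 0.13 (-0.65 to 0.88).

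A gate on globin alone gave the same order. In cells whose UMIs were at least 5% globin, Lmx1a stood at 42.3 CPM in WT and 46.9 CPM in KO, against 8.88 and 6.53 CPM in the other cells. With at least 20% globin the levels were 51.0 and 65.4 CPM, and with at least 1% they were 24.2 and 42.6 CPM. The globin share of erythroid-gated WT cells with an Lmx1a UMI had a median of 14.0% against 14.1% without, and that of KO cells 15.7% against 14.3%.

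**Figure D5:**
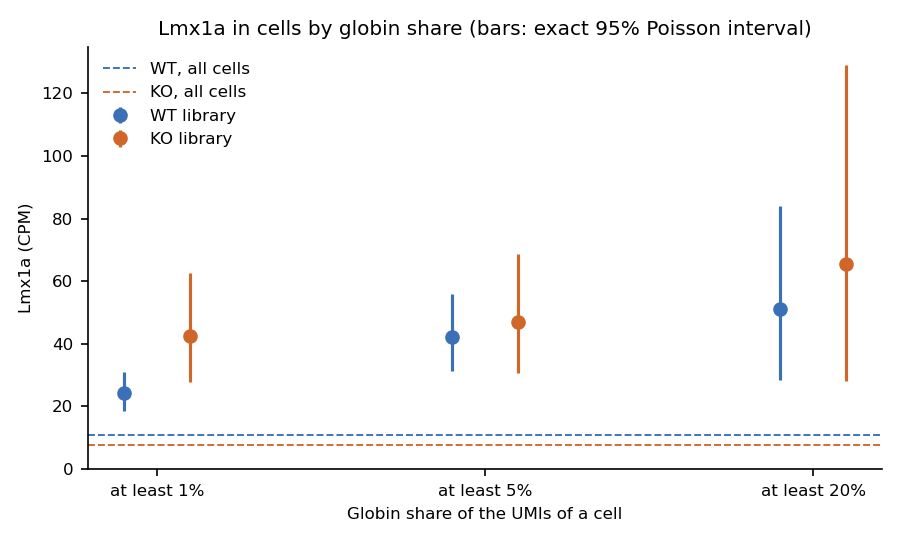
Lmx1a level (CPM, vertical axis) in cells whose UMIs were at least 1%, 5% or 20% globin (horizontal axis) in the WT (blue) and KO (orange) libraries, with exact 95% Poisson intervals. Dashed lines are the levels over all cells, 10.8 CPM in WT and 7.71 CPM in KO, and all 6 points lie above them.

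The likeness of the 8 patterns was described over 15 cell classes, with both libraries summed, by Pearson's r of log2(CPM + 10). The classes share libraries and differ in depth, so these values are descriptions. Zic1 and Zic4 were the most alike pair (r = 0.95), followed by Pax3 and Pax7 (0.91) and Zic2 and Zic5 (0.85), and without the class of the highest level these were 0.94, 0.86 and 0.73. The order depended on single classes, as Zic1 and Zic5 (0.81) were at 0.89 without the dermomyotome and 0.83 without the dorsal neural tube. The annotated Zic1 and Zic4 genes overlap at their 5′ ends, on opposite strands, while the libraries were made with 3′ chemistry. The counting of strand is not given in the sources used here, and whether any reads were shared was not tested. Lmx1a had r between -0.26 and 0.24 with the others, and without the erythroid class 0.64 with Olig3, 0.55 with Zic2, 0.45 with Zic5 and -0.06 to -0.01 with the rest.

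Outside the group, the genes with the most similar patterns to Zic1 were Klhl29 (0.94), Cp (0.92) and Tmem132c (0.90), and to Zic4 they were 6430573F11Rik (0.91), Cp and Ift88 (both 0.90). For Zic5 they were Rprm (0.90), Cdon (0.88) and Boc (0.82), the last 2 of which encode co-receptors of Shh, and for Zic2 Chrdl1 (0.83), Cdon (0.82) and Ncald (0.81). Olig3 was most like Rprm (0.88), Tdrkh (0.85) and Fgf15 (0.85), Pax3 like Psma3, Bbs12 and Rbm27 (0.87 each), and Pax7 like Med8 (0.89), Grip1 (0.87) and Macrod2 (0.86). Lmx1a was most like Ppox (0.92), an enzyme of heme synthesis, Lyrm4 (0.88) and Slc25a21 (0.86), and without the erythroid class these were 0.77, 0.66 and 0.57. Candidates were 10378 genes with at least 200 UMIs.

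The partners of the 8 factors in patterning were then described in KO over WT, for genes with at least 50 UMIs. Among 15 roof plate and dorsal signalling genes, 1 was at least 1.5-fold lower over all cells and none higher, with a median log2 ratio of -0.16, where 3.79% of all genes tested were that much lower and 1.02% higher and their median was -0.06. The lower gene was Bambi, an inhibitor of BMP signalling, with 1356 UMIs in WT and 706 in KO and a log2 ratio of -0.81 (-0.94 to -0.68). Of 12 neural crest specifiers, Sox8 alone was past that size (47 and 23 UMIs, -0.90), with a median of -0.06, and of 4 dorsal progenitor genes Lbx1 alone (41 and 17 UMIs, -1.14), with a median of -0.19. Of 10 dermomyotome and myogenic genes, Myf5, a determination factor of muscle, with 1171 and 525 UMIs (-1.02, -1.17 to -0.87), and Lbx1 were past it, with a median of -0.03. The dermomyotome- and myotome-gated cells, for which both are markers, were 0.945% of WT and 0.512% of KO cells. None of 11 ventral and intermediate genes and none of 8 relatives of the Zic, Pax, Olig and Lmx1 genes was past it, with medians of -0.06 and -0.22.

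In the neural tube-gated cells, none of the list genes was 1.5-fold higher in KO. The lower ones were Olig2, the motor neuron progenitor factor (58 and 25 UMIs, -1.17, -1.91 to -0.47), Pax2 (61 and 36, -0.72), Nkx2-9 (75 and 48, -0.60), the Wnt agonist Rspo1 (39 and 23, -0.72) and the neurogenic factor Neurog1 (42 and 27, -0.59), and the intervals of the last 2 held 0. They were 2 of 4 relatives, 2 of 10 ventral and intermediate genes with Olig2 in both lists, 1 of 13 roof plate genes and 1 of 3 dorsal progenitor genes, beside 4.38% of all genes. These genes had few UMIs, and of genes with 10 to 49 UMIs 24.6% were that much lower. The list medians were -0.64, -0.31, -0.24 and -0.17, against -0.04 over all genes, and the median of 9 neural crest specifiers was -0.41 with none past 1.5-fold. Below 1.5-fold, the list genes with intervals clear of 0 were the neural crest specifiers Sox9 (604 and 423 UMIs, -0.47, -0.65 to -0.29) and Twist1 (237 and 285, 0.31, 0.06 to 0.57), Msx1, which lies downstream of BMP (191 and 128, -0.53, -0.87 to -0.20), the BMP target Id3 (539 and 442, -0.24, -0.43 to -0.06) and the intermediate progenitor gene Irx3 (290 and 230, -0.29, -0.55 to -0.03). Twist1 was thus higher in KO and the others lower, and the share of all genes that met this rule is not given here. Among 5 dermomyotome genes in these cells none was past 1.5-fold, with a median of 0.03.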

How the data were processed

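Cells of the cardiac neural crest region were profiled in 2 droplet libraries, 1 per genotype. Per the paper's methods, the authors counted UMIs with Cell Ranger 1.3.1, assigned cells to samples by lipid-tagged barcodes, kept cells of 200 to 6000 UMIs, dropped genes in fewer than 3 cells, took out mitochondrial and ribosomal UMIs, removed doublets, and scaled and square-root transformed the values. The deposited values are such a score: their squares sum to the same total in every cell. The submitters' notes name mm10 and the symbols are mouse, whereas the methods name a human genome, so the aligner's reference is uncertain.

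UMIs were recovered by squaring each value and dividing by the smallest nonzero square of its cell, and 100% of values came out whole within 0.01. Because the files hold scores and each genotype is 1 library, no count model was fitted and no p-value is given. Doublets were not called again. A cell was gated into a class with UMIs of at least 3 different markers of it and more than of any other class, and into a neural tube or somite subclass with at least 1 subclass marker and none of another subclass. Of the marker and list genes, 5 were not analysed here. Classes with at least 25 cells in each library were compared. A ratio is given from 10 UMIs over both groups, the share of genes past 1.5-fold uses genes with at least 50, and the floor is 3 counts over the group. For shares, cells were also thinned to 1000 UMIs, and the shallower cells (1361 in WT, 125 in KO) were dropped. The genes named are the 8 factors, list genes past 1.5-fold with the extremes first, and for each factor the 3 genes most like it among those with at least 200 UMIs. List genes below 1.5-fold in the neural tube were named, after their values were seen, where the interval was clear of 0. The 8 genes, the lists and the gates were chosen with earlier results of these data known. Scripts were tested on simulated counts and used Python 3.11.15, NumPy 2.4.6, SciPy 1.17.1 and pandas 2.3.3. Alternatives in scaling, gating, thinning and count minimum were run for the results below.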

Additional observations from a re-analysis of the deposited data

Results flagged for a closer look

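For 2 of the 8 factors, the ratio of KO over WT lay on opposite sides of 0 in 2 cell classes, each with an interval clear of 0. Over the same 11 classes, 3.06% of 12909 genes with at least 50 UMIs (395 genes) met this rule. The difference between the classes was not tested, since each genotype was 1 library. Zic1 had a log2 ratio of 1.04 (0.41 to 1.70) in endothelial-gated cells, with 33 UMIs in WT and 62 in KO, where 2.66% of 6275 genes were at least 1.5-fold higher, and of -1.12 (-2.0 to -0.29) in migrating NCC-gated cells. Endothelial cells were taken above as a class that should lack these genes, with shares at that level read as background. The share of endothelial cells with a Zic1 UMI was 7.21% and 16.9%, and after thinning to 1000 UMIs 4.21% and 5.23%. Pax3 had a log2 ratio of 0.34 (0.04 to 0.64) in cardiac muscle-gated cells, with 162 and 214 UMIs, and of -0.51 (-0.93 to -0.09) in somite-gated cells. With gates on cells thinned to 1000 UMIs the somite value turned to 0.16 (-0.47 to 0.77), so the opposite direction of Pax3 depends on the gate. The cardiac gate is wide, as 19.8% of WT and 23.8% of KO cells passed it and the heart gene Myl7 was found in 39.8% and 44.0% of all cells.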

How the results depend on the processing

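Of 476 values recomputed under an alternative, 406 moved by less than their counting interval, or less than 1.5 times for a count. The sign of a log2 ratio changed in 22 cases, none of them for a main value past 1.5-fold and 1, Pax3 in the somite, for a main value whose interval was clear of 0. No paired analysis was possible because each genotype was 1 library, and for the same reason no replicate could be left out. Gates on cells thinned to 1000 UMIs moved the log2 ratio of KO over WT to -0.47 for Zic1 in the neural tube, to -0.70 for Zic1 and -0.54 for Zic5 in its dorsal class, and the WT ratio of dorsal over ventral for Olig3 to 5.84. They also gave 0.16 for Pax3 and -2.69 for Pax7 in the somite and -0.86 for Pax3 in migrating NCCs. With at least 4 markers required, Zic2 in the neural tube was at 2.18 and Olig3 in the dorsal class at -0.47. Markers weighted by rarity, an alternative chosen after seeing the data, put Pax7 in the dorsal class at 2.46, and with at least 2 markers required it fell to 0.03. Over its alternatives Lmx1a ranged from -2.27 to -0.49 in the neural tube and from -2.30 to -0.62 in its dorsal class, and its ratio of erythroid over other cells from 2.06 to 2.41 in WT and from 2.82 to 3.01 in KO. Zic1 ranged from 0.65 to 1.28 in endothelial cells and from -1.41 to -0.75 in migrating NCCs. Other scalings put the centre of all genes at -0.06 over all cells. Counts of list genes at least 1.5-fold lower in KO moved with the UMI minimum. With at least 200 UMIs they were 0 for dorsal progenitor genes and neural crest specifiers and 1 for dermomyotome genes over all cells, and 0 for relatives, roof plate and ventral genes in the neural tube. With no minimum they were 1 for relatives and 2 for dorsal progenitor genes over all cells. In the neural tube they were 2 for roof plate, dorsal progenitor and neural crest genes, with 1 dermomyotome gene lower and 1 higher. Thinned shares moved in 47 of 64 cases, as fewer UMIs per cell give lower shares. Depth limited Zic2, Zic4, Pax7 and Lmx1a most.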
